A study of Mus musculus with 6 samples.

Results

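The 10 genes described here encode subunits of leak and inward rectifier potassium channels, and were chosen by name. *Kcnk1*, *Kcnk2*, *Kcnk3*, *Kcnk9* and *Kcnk10* encode two-pore subunits, and *Kcnj3*, *Kcnj4*, *Kcnj6*, *Kcnj9* and *Kcnj10* encode inward rectifier (Kir) subunits. All 10 were among the 50508 gene symbols of the deposited files, and all 10 were above 0 in at least 1 library, which placed them among the 19504 genes tested. Primary mouse neurons, prepared from newborn C57Bl/6J pups, were transduced with a lentivirus that expressed a nuclease-dead Cas9 fused to the activator VP160 from the *Eef1a1* promoter, together with 1 guide RNA. The guide was sgLacZ, against a bacterial gene, in the Ctrl-dCas9A group, and sgKcna1 (named sg19 in the study), against the *Kcna1* promoter, in the Kcna1-dCas9A group. Each group had 3 libraries, both groups carried the activator, and nothing in the labels says that the libraries came from separate cultures, so that p-values measure the spread between these libraries. The *Eef1a1* promoter is active in most cell types, hence glia in the cultures could carry the construct as well. The labels name hippocampus as the source whereas the methods of the study name cortex, and all 6 markers of hippocampal neurons and all 6 markers of cortical neurons tested were above 0 in every library.

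Two-pore channels carry a background potassium current that is open near the resting potential and pulls the membrane towards the potassium equilibrium potential. Inward rectifiers pass current more easily into the cell than out of it, and the Kir3 (GIRK) members among them open when G protein βγ subunits are released by inhibitory receptors. Both families therefore set how strongly a neuron responds to injected current at rest, which is the input resistance, a property that the study recorded beside firing. The study reported that it was decreased in cultured neurons transduced with Kcna1-dCas9A. Compensation by other channels is proposed there as a possible explanation, which was not tested here. The study gives differing ages of the cultures for the RNA, so that RNA and recordings may differ in age. The comparison asks whether the RNA of these other potassium channels differed in cultures in which *Kcna1* was activated.

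The values are whole numbers per gene that summed to between 999047 and 999717 in each library, and they were treated as per-million values rounded by the authors. The number of reads is unknown, and rounding alone can move the lowest *Kcnj10* value, 5, by up to 10%, the lowest *Kcnk3* value, 6, by up to 8.33% and the lowest *Kcnj9* value, 7, by up to 7.14%. *Kcna1*, the target of the guide, had a value of 16 in each control and of 68, 47 and 65 under its own guide, a log2 difference of 1.83 (standard error 0.16, adjusted p = 0.034 from limma). It did not pass the threshold of 0.05 with the replicate number as a block (adjusted p = 0.11 from limma), nor in 5 of the 6 fits that left out 1 library (0.11 to 0.14). Differences are Kcna1-dCas9A minus Ctrl-dCas9A on the log2(value + 1) scale, p-values were adjusted over all genes by the Benjamini-Hochberg method with a threshold of 0.05, and values are given in the order of replicates 1 to 3, Ctrl-dCas9A first. One library stood apart. Over the 9751 genes that averaged 5 or more, Ctrl-dCas9A replicate 3 differed from the other Ctrl-dCas9A libraries by a mean absolute log2 difference of 0.37, and from the Kcna1-dCas9A libraries by 0.33. The same distance to the Kcna1-dCas9A libraries was 0.55 for Ctrl-dCas9A replicate 1 and 0.52 for replicate 2. Results that rest on replicate 3 are given with and without it. Markers of other cells moved with the groups: the 12 astrocyte markers summed to between 1078 and 1202 in Ctrl-dCas9A and to between 777 and 792 in Kcna1-dCas9A, and 4 of the 11 tested passed the threshold, all lower. The 8 microglia markers summed to between 22 and 25 and to between 53 and 72, with 1 of 6 tested past the threshold (*C1qa*, higher), whereas Tmem119 and P2ry12 were at 0 throughout. The 8 markers of the oligodendrocyte lineage summed to between 66 and 98 and to between 40 and 44, with 1 of 7 tested past the threshold (*Olig2*, lower) and Mog at 0. *Olig1* held the largest part of that sum, at 59, 49 and 34 against 20, 24 and 15. Of the 7 tested, 6 were lower, whereas *Mbp* was higher without overlap, at 3, 3 and 2 against 7, 4 and 7. The *C1qa* and *Olig2* calls were lost with the replicate number as a block, where 0 genes passed. They were also lost with any 1 library other than Ctrl-dCas9A replicate 3 left out. The 8 vascular and meningeal markers summed to at most 17 in any library. The 6 pan-neuronal markers summed to between 4233 and 4995 and to between 5407 and 6820, and the 6 cortical markers to between 491 and 645 and to between 412 and 442. The pan-neuronal markers did not move together. *Tubb3*, a large part of the pan-neuronal sum, was listed at 1862, 1752 and 2605 and at 3855, 3221 and 4591. *Nefl* was also higher in every Kcna1-dCas9A library. *Map2* (1643, 1819 and 1614 against 1442, 1466 and 1427) and *Snap25* were lower in every one, whereas *Rbfox3* and *Syt1* overlapped. The sums of excitatory, inhibitory and hippocampal markers overlapped between the groups, although single markers did not: *Neurod6* was lower in every Kcna1-dCas9A library (log2 difference -0.40), and *Slc17a7*, *Camk2a* and *Nrgn* were higher in every one (0.53 to 0.62). Of the 6 pan-neuronal, 6 excitatory and 7 inhibitory neuron markers, 0 passed the threshold, and 4 of each list had an unadjusted p under 0.05 from limma (2 higher and 2 lower, 3 higher and 1 lower, and 1 higher and 3 lower), where 23.2% of all genes tested and 37.7% of those with a mean of at least 5 did.

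None of the 10 channel genes had an adjusted p under 0.05 from limma, where 1.16% of all genes tested did (68 higher and 158 lower in Kcna1-dCas9A, 962 and 757 with median-of-ratios factors). Their adjusted p-values lay between 0.10 and 0.85. 5 were higher and 5 lower in Kcna1-dCas9A, with a median log2 difference of 0.04, against -0.02 over all genes tested. This median had no stable sign: it was 0.23 without Kcna1-dCas9A replicate 3, 0.19 without Ctrl-dCas9A replicate 3, 0.15 with upper-quartile factors, -0.03 without Kcna1-dCas9A replicate 2 and -0.13 where a mean of at least 1 was required. *Kcnj4*, *Kcnj9* and *Kcnj10* had an unadjusted p under 0.05, which is 30% of the members against 23.2% of all genes tested. The same 3 genes had groups that did not overlap, against 22.2% of all genes tested. Among genes with a mean of at least 5, to which 8 of the 10 members belong, the groups did not overlap in 37.5% of the members and in 37.5% of all such genes, while 37.7% of all such genes had an unadjusted p under 0.05. The members were thus called about as often as other genes of their level. In an exact permutation test 3 libraries against 3 cannot give a p below 0.1, the value found for those 3 genes.

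**Figure D1:**
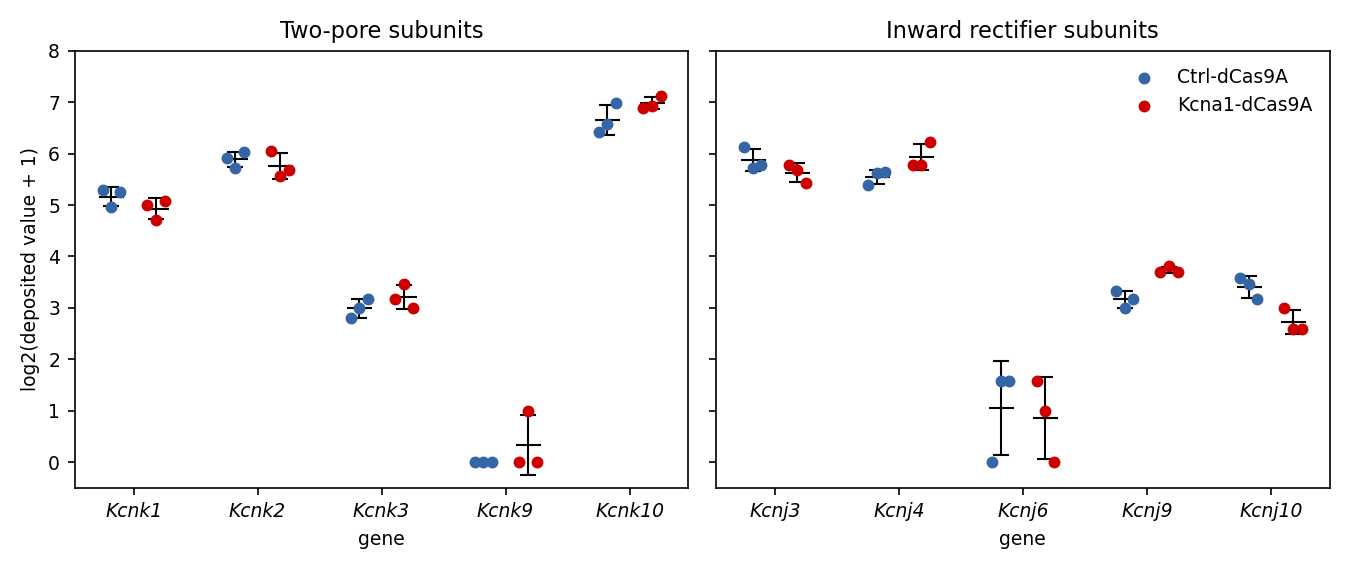
Values of the 10 channel genes in each library on the log2(deposited value + 1) scale, with two-pore subunits on the left and inward rectifier subunits on the right. Points are libraries (3 per group), and the bar and whiskers give the mean and SD of the log2 values. *Kcnk10* is the highest in both groups, *Kcnk9* and *Kcnj6* lie near 0, and the groups part only for *Kcnj4*, *Kcnj9* and *Kcnj10*.

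The QuantSeq 3′ method reads the end of each transcript, so that levels were compared between genes without division by length. Because the annotation used for counting is not given, reads outside an annotated transcript end could be missed. The order of the genes and a level near 0 are uncertain to that extent. In Ctrl-dCas9A, *Kcnk10* was the most abundant member with a mean value of 102 ± 21.5 (SD, n = 3), higher than 91.4% of the genes tested. It was followed by *Kcnk2* at 58.3 ± 6.0 and *Kcnj3* at 58.3 ± 9.3, whose ranges overlapped, then *Kcnj4* at 46 ± 4.4 and *Kcnk1* at 35 ± 4.4, each below the range of the gene before it. *Kcnj10* (9.67 ± 1.5), *Kcnj9* (8 ± 1) and *Kcnk3* (7 ± 1) formed a group of low values in which neighbours overlapped. *Kcnj6* averaged 1.33 and *Kcnk9* was at 0 in all 3 libraries. In Kcna1-dCas9A, *Kcnj4* took the second place at 60.7 ± 11.5, although its range overlapped that of *Kcnk2* (53.7 ± 10.02), and *Kcnj9* at 12.3 ± 0.58 stood above *Kcnk3* (8.33 ± 1.5) and *Kcnj10* (5.67 ± 1.2) without overlap. For the 8 members with a mean of at least 5, the SD between replicates was between 4.68% and 21.2% of the group mean. The values of the 10 genes together summed to 318, 302 and 356 in Ctrl-dCas9A and to 351, 326 and 361 in Kcna1-dCas9A. These sums overlapped, and the two-pore genes made up 59.1% to 66.0% of them in Ctrl-dCas9A and 62.3% to 63.2% in Kcna1-dCas9A.

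*Kcnk10* and *Kcnk2* encode TREK-2 and TREK-1, two-pore channels that respond to membrane stretch, fatty acids and temperature. *Kcnk10* had Ctrl-dCas9A values of 85, 94 and 126 and Kcna1-dCas9A values of 118, 121 and 138. The groups overlapped because Ctrl-dCas9A replicate 3, at 126, lay among the Kcna1-dCas9A libraries. The log2 difference was 0.32 (95% interval -0.06 to 0.70, adjusted p = 0.27 from limma). Without that replicate it was 0.48 with an adjusted p of 0.045, the only one of the 15 alternatives in which a member passed the threshold. Leaving out that library raised the number of all genes past the threshold from 226 to 2711. *Kcnk2* was listed at 59, 52 and 64 and at 65, 46 and 50. Its groups overlapped widely, with a log2 difference of -0.13 (95% interval -0.50 to 0.24, adjusted p = 0.60 from limma). It was -0.27 without Kcna1-dCas9A replicate 1, -0.03 without Kcna1-dCas9A replicate 2 and -0.01 with upper-quartile factors. Both TREK genes together held 76.6%, 79.8% and 80.9% of the two-pore values in Ctrl-dCas9A and 82.4%, 82.3% and 82.5% in Kcna1-dCas9A, which did not overlap and were not tested. The ratio of *Kcnk10* to *Kcnk2* within a library, which no scaling of the libraries can alter, was 1.44, 1.81 and 1.97 against 1.82, 2.63 and 2.76, and overlapped between the groups.

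*Kcnk1* encodes TWIK-1, a two-pore subunit that resides largely in intracellular membranes and carries little current at the surface. It had Ctrl-dCas9A values of 38, 30 and 37 and Kcna1-dCas9A values of 31, 25 and 33. The ranges overlapped between 30 and 33, and the log2 difference was -0.23 (95% interval -0.61 to 0.14, adjusted p = 0.43 from limma). *Kcnk3* and *Kcnk9* encode the acid-sensitive subunits TASK-1 and TASK-3. *Kcnk3* was listed at 6, 7 and 8 and at 8, 10 and 7, a log2 difference of 0.22 (95% interval -0.28 to 0.72, adjusted p = 0.51 from limma). *Kcnk9* was listed at 0 except for a 1 in Kcna1-dCas9A replicate 2, and no fold is given. The RefSeq annotation of GRCm38.p6 places a further gene across part of *Kcnk2* (Pdcd5-ps and A430027H14Rik), *Kcnk3* (Gm9899) and *Kcnk10* (Gm40893). No source used here says whether strand was used in counting, so that the values of these 3 channel genes are uncertain to the extent that reads are shared.

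Among the inward rectifiers, *Kcnj4* encodes Kir2.3, a strongly rectifying channel of neurons that stays open without G protein input. It had Ctrl-dCas9A values of 41, 48 and 49 and Kcna1-dCas9A values of 54, 54 and 74. Every Kcna1-dCas9A library was above every Ctrl-dCas9A library, with a gap of 5 between the groups, which is less than the SD of the Kcna1-dCas9A libraries (11.5). The log2 difference was 0.38 (standard error 0.16, 95% interval 0.01 to 0.75, unadjusted p = 0.046, adjusted p = 0.20 from limma). Without Kcna1-dCas9A replicate 3, which holds the value of 74, it was 0.23, and without Ctrl-dCas9A replicate 3 it was 0.43 (adjusted p = 0.21 from limma).

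The 3 GIRK subunits were listed at very different levels. *Kcnj3* encodes Kir3.1, which needs another Kir3 subunit to form a working channel, *Kcnj6* encodes Kir3.2, which can form channels alone, and *Kcnj9* encodes Kir3.3, which joins the others and is sorted through endosomes by the protein Snx27. *Kcnj3* had Ctrl-dCas9A values of 69, 52 and 54 and Kcna1-dCas9A values of 54, 50 and 42. The groups overlapped, with a log2 difference of -0.25 (95% interval -0.62 to 0.11, adjusted p = 0.37 from limma). *Kcnj6* was listed at 0, 2 and 2 and at 2, 1 and 0, too low for a comparison, and the sign of its fitted difference turned when single libraries were left out. *Kcnj9* was listed at 9, 7 and 8 and at 12, 13 and 12. The highest Ctrl-dCas9A value, 9, was below the lowest Kcna1-dCas9A value, 12, and the gap exceeded the SD of either group. The log2 difference was 0.57 (standard error 0.17, 95% interval 0.17 to 0.98, unadjusted p = 0.012, adjusted p = 0.10 from limma), the smallest p of the 10 genes and the 2312th smallest of all genes tested. Without Ctrl-dCas9A replicate 3 the adjusted p was 0.076. *Kcnj9* made up 11.5%, 11.5% and 12.5% of the summed GIRK values in Ctrl-dCas9A and 17.6%, 20.3% and 22.2% in Kcna1-dCas9A. The ratio of *Kcnj3* to *Kcnj9* was 7.67, 7.43 and 6.75 in Ctrl-dCas9A and 4.50, 3.85 and 3.50 in Kcna1-dCas9A, without overlap. The GIRK sums themselves overlapped, at 78, 61 and 64 against 68, 64 and 54. These ratios were chosen after the values were seen and were not tested.

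*Kcnj10* encodes Kir4.1, the main potassium channel of astrocytes, which takes up potassium released by active neurons. It had Ctrl-dCas9A values of 11, 10 and 8 and Kcna1-dCas9A values of 7, 5 and 5. The groups did not overlap, but their nearest values, 8 and 7, were 1 apart, which is less than the SD of either group (1.53 and 1.15). The log2 difference was -0.68 (standard error 0.22, 95% interval -1.20 to -0.16, unadjusted p = 0.017, adjusted p = 0.12 from limma), the lowest of the 10. Without Ctrl-dCas9A replicate 3 it was -0.80 (adjusted p = 0.064 from limma). The astrocyte markers that passed the threshold were *Aqp4*, a water channel of astrocyte endfeet (log2 difference -1.42, adjusted p = 0.049), *Glul*, the glutamine synthetase (-0.74, 0.049), *Sox9*, a glial transcription factor (-0.56, 0.050), and *Aldoc*, a glycolytic enzyme (-0.54, 0.050), all from limma. These calls were lost with the replicate number as a block and with any 1 library other than Ctrl-dCas9A replicate 3 left out, where 0 genes passed. *Gfap*, the astrocyte filament protein, at 45 to 63 against 46 to 70, overlapped between the groups, and Gjb6 was at 0 in all libraries. Per 1000 of the summed astrocyte markers, *Kcnj10* had Ctrl-dCas9A values of 9.15, 8.66 and 7.42 and Kcna1-dCas9A values of 8.86, 6.44 and 6.31, and these values overlapped. In RNA from whole cultures, fewer cells of a type and less RNA per cell cannot be told apart, and the part of the astrocyte markers in the *Kcnj10* result was not tested. The summed markers of the oligodendrocyte lineage were lower as well (66 to 98 against 40 to 44), and *Kcnj10* was not set against them.

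**Figure D2:**
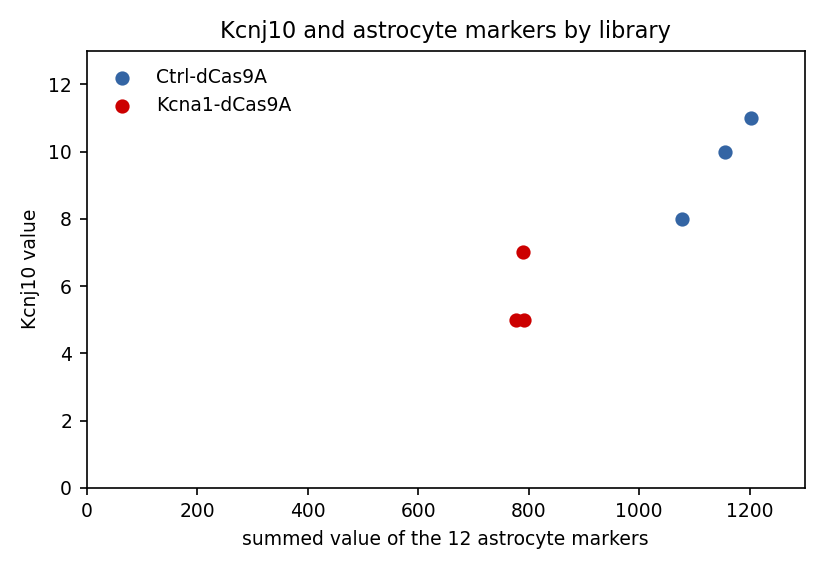
*Kcnj10* value against the summed value of the 12 astrocyte markers, 1 point per library. The 3 Kcna1-dCas9A libraries lie at marker sums of 777 to 792 with *Kcnj10* at 5 to 7, and the 3 Ctrl-dCas9A libraries at 1078 to 1202 with *Kcnj10* at 8 to 11.

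*Kcnj9* and *Kcnj10*, the members with the highest and the lowest log2 difference among those with a mean of at least 5, are neighbours on chromosome 1. In GRCm38.p6 they start in opposite directions, 11887 bp apart, with 0 other RefSeq genes between them. The ratio of *Kcnj9* to *Kcnj10* was 0.82, 0.70 and 1 in Ctrl-dCas9A and 1.71, 2.60 and 2.40 in Kcna1-dCas9A. This pair was picked after the values were seen and the ratio was not tested. The promoters are shown because the genes share a locus and were listed in opposite directions. Each sequence (RefSeq, GRCm38.p6) runs from 250 bases before to 50 bases after the start, on the strand of the gene, with motifs in capitals. The *Kcnj9* window is chr1:172329273-172329572 on the minus strand, and the *Kcnj10* window is chr1:172340960-172341259 on the plus strand.
Kcnj9: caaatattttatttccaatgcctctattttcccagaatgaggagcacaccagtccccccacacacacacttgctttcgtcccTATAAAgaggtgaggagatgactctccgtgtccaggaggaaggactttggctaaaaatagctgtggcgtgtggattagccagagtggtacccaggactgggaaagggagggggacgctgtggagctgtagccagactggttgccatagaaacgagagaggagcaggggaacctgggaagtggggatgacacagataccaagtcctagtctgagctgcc
Kcnj10: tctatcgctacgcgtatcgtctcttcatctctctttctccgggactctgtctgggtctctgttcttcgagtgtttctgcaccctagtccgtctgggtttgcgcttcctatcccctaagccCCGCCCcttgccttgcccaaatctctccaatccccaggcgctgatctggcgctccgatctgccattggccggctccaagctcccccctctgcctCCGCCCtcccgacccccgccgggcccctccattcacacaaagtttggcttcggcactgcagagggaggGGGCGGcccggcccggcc
The motifs searched on both strands were the GC box GGGCGG, the TATA box TATAAA, the cAMP response element TGACGTCA and the E-box CACGTG. The *Kcnj10* window held 3 GC boxes, 0 TATA boxes, 21 CpG dinucleotides and 63.7% G and C. The *Kcnj9* window held 1 match to the TATA box letters, 0 GC boxes, 5 CpG and 52.3% G and C, and neither held the other 2 motifs. The whole window was searched without a limit on position. The *Kcnj9* TATAAA lies far before the start, and the last *Kcnj10* GC box lies after it. Whether any match works as a promoter element was not tested. Of the 32851 RefSeq windows, 35.7% hold a GC box, 13.6% a TATA box, 1.79% a cAMP response element and 7.15% an E-box, with a median G and C content of 52.7%. Of the 13 windows available for 8 members, 6 held a GC box and 1 a TATA box, and no window was found for *Kcnk3* and *Kcnk9*.

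The guide of the Kcna1-dCas9A group is shown beside the closest site in a promoter window of the members, since the guide is what differs between the groups. The guide matched NCBIM37 next to an NGG PAM at chr6:126595930-126595949 on the plus strand, 111 bp before the annotated *Kcna1* start (GENCODE vM1). The closest site of the members is in a *Kcnk10* window, at chr12:98578271-98578293 on the plus strand of GRCm38.p6. The final 3 bases of each line are the PAM, and capitals mark bases that differ from the guide.
sg19: agtcaatgatcacatcctcctgg
Kcnk10: aAtcaCtgaAcacTGcTCcGagg
That site had 8 mismatches over 20 bases, and the closest sites of the other 12 windows of the members had up to 12, where the median over all windows was 11. Windows with 8 or fewer mismatches made up 4.16% of all windows. Only these 300 bases per start were searched, without gaps.

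**Figure D3:**
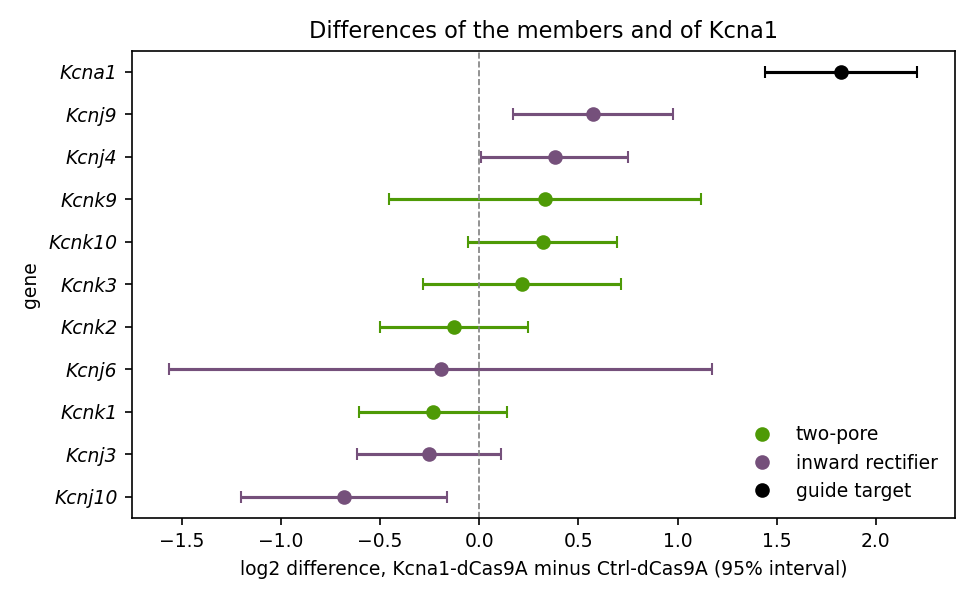
Log2 difference (Kcna1-dCas9A minus Ctrl-dCas9A, on the log2(value + 1) scale) with its unadjusted 95% interval from limma, for the 10 channel genes and *Kcna1*. *Kcna1* lies at 1.83, the channel genes lie between -0.68 and 0.57, and the intervals of *Kcnj9*, *Kcnj4* and *Kcnj10* leave out 0.

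**Figure D4:**
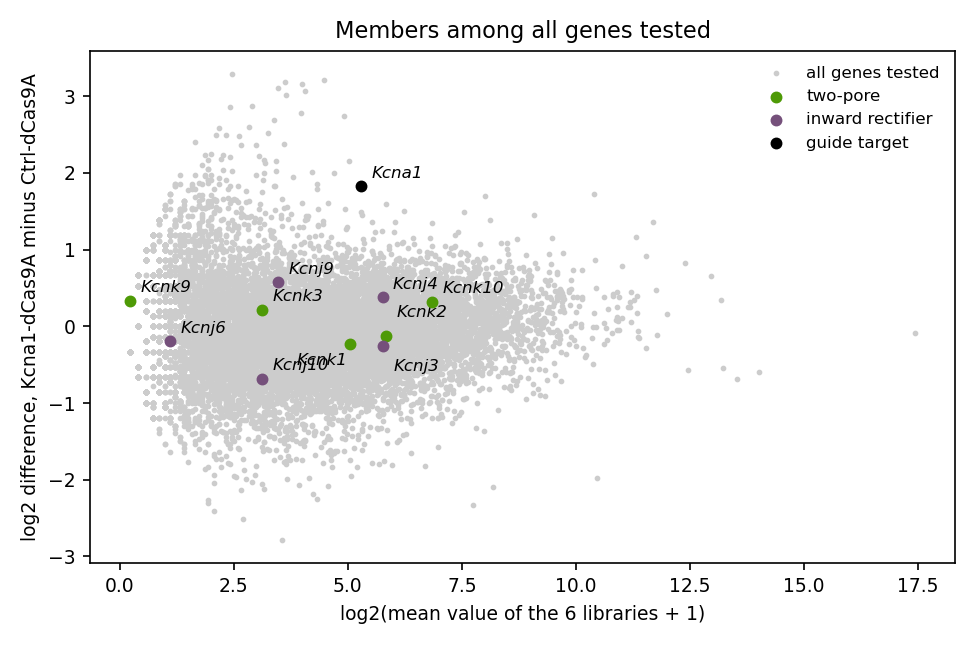
Log2 difference against the log2 of the mean value + 1 for all 19504 genes tested (grey), with two-pore genes in green, inward rectifiers in purple and *Kcna1* in black. The channel genes lie within the cloud of genes of the same level, and *Kcna1* lies above most genes of its level.

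The other subunits of both families did not exceed 6 in any library, apart from *Kcnj11*. Of 9 further two-pore genes, 6 were at 0 in all libraries, and *Kcnk6*, *Kcnk13* (THIK-1, a channel of microglia) and *Kcnk12* did not exceed 3 in any library. Of 10 further inward rectifiers and the KATP regulatory subunits *Abcc8* and *Abcc9*, 5 were at 0. *Kcnj11*, the pore subunit of the KATP channel that opens when ATP is low, was the highest, at 10, 10 and 17 in Ctrl-dCas9A and 15, 11 and 13 in Kcna1-dCas9A, and the groups overlapped. *Abcc8*, its regulatory partner, was listed at 2, 2 and 2 and at 4, 4 and 2, with a log2 difference of 0.49 (95% interval -0.19 to 1.17, adjusted p = 0.35 from limma). *Kcnj2*, the strongly rectifying Kir2.1, was listed at 3, 1 and 2 and at 1, 0 and 1, and *Kcnj13* (Kir7.1) was at 0 except for a 1 in Ctrl-dCas9A replicate 2. None of the 3 two-pore and 7 Kir or KATP genes tested had an adjusted or an unadjusted p under 0.05 from limma. The median log2 difference of the 7 was -0.14, and none is given for the 3, since *Kcnk6* and *Kcnk13* were each at 0 except for a 1 in a single Kcna1-dCas9A library.

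The partners of these channels were examined as 4 lists. Together with the other subunits, 58 genes were tested, of which 0 passed the threshold in limma, 16 (27.6%) had an unadjusted p under 0.05 and 13 (22.4%) had groups that did not overlap, 3 higher and 10 lower. Over all genes tested these shares were 23.2% and 22.2%, with 1752 higher and 2585 lower among the genes without overlap, so that the lists were called about as often as genes at large. Their median log2 difference was -0.13, and was -0.04 with median-of-ratios factors, -0.01 with upper-quartile factors and -0.05 without Kcna1-dCas9A replicate 3. With rescaling by median-of-ratios factors 4 passed, with upper-quartile factors 6, and 13 passed without Ctrl-dCas9A replicate 3, where 1719, 2058 and 2711 of all genes passed. *Gnb2*, *Gnai3*, *Gabbr1* and *Dlg4* passed under both rescalings and also when Gm42418 was left out, *Gng2* in the last of these, and *Apba1* and *Akap5* with upper-quartile factors.

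Of the 17 G protein and RGS genes that open GIRK channels or end their opening, 6 (35.3%) had an unadjusted p under 0.05, against 23.2% of all genes tested and 37.7% of those with a mean of at least 5, with a median log2 difference of -0.13. *Gnb2*, a G protein β subunit, had Ctrl-dCas9A values of 568, 384 and 145 and Kcna1-dCas9A values of 71, 63 and 53. The groups did not overlap, and Ctrl-dCas9A replicate 3 lay between the other controls and the Kcna1-dCas9A libraries. Its log2 difference was -2.34 (standard error 0.46, adjusted p = 0.055 from limma), and -2.90 without that replicate (adjusted p = 0.017). *Gnai3*, an inhibitory α subunit, was listed at 48, 47 and 26 and at 21, 15 and 13, with a log2 difference of -1.23 (adjusted p = 0.056 from limma, 0.026 without that replicate). *Gng2*, a γ subunit, was listed at 592, 583 and 486 and at 414, 390 and 403, with a log2 difference of -0.45 (adjusted p = 0.056 from limma, 0.018 without it). The main neuronal α subunit *Gnao1* was abundant, at 943 to 1064 against 869 to 943, with a log2 difference of -0.13 (adjusted p = 0.41 from limma).

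Of 13 receptor genes and GABA-B auxiliary subunits upstream of GIRK channels, 11 were tested and 3 (27.3%) had an unadjusted p under 0.05, against the same 23.2% and 37.7%. *Gabbr1*, the ligand-binding GABA-B subunit, had Ctrl-dCas9A values of 335, 346 and 538 and Kcna1-dCas9A values of 636, 609 and 640. Again Ctrl-dCas9A replicate 3 was the control nearest to the other group, and the log2 difference was 0.66 (standard error 0.18, adjusted p = 0.085 from limma, 0.017 without that replicate). Its partner *Gabbr2*, which couples the receptor to G proteins, was listed at 62, 70 and 60 and at 59, 53 and 56, a log2 difference of -0.19 with groups that did not overlap (adjusted p = 0.34 from limma). *Kctd12*, a GABA-B auxiliary subunit, and *Cnr1*, the cannabinoid receptor, had log2 differences of -0.57 (adjusted p = 0.14) and -0.51 (adjusted p = 0.13) from limma. The median of the list was -0.19.

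Of the 16 trafficking and anchoring genes, 6 (37.5%) had an unadjusted p under 0.05, against 23.2% of all genes tested and 37.7% of those with a mean of at least 5, with a median log2 difference of -0.07. *Dlg4*, the postsynaptic scaffold PSD-95 that binds Kir2.3, was listed at 338, 374 and 276 and at 198, 217 and 227, with a log2 difference of -0.61 (adjusted p = 0.056 from limma, 0.021 without Ctrl-dCas9A replicate 3). Its relative *Dlg1* and the adaptor *Apba1* had log2 differences of -0.67 (adjusted p = 0.098) and 0.52 (adjusted p = 0.16) from limma, with adjusted p-values of 0.039 and 0.033 without that replicate. *Snx27*, the sorting protein of Kir3.3, was listed at 135, 122 and 102 and at 109, 120 and 111, and the groups overlapped.

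The sodium leak complex, which opposes the potassium leak, was represented by 4 genes, of which 1 (25.0%) had an unadjusted p under 0.05, against 23.2% of all genes tested, with a median log2 difference of -0.22. *Fam155a*, an auxiliary subunit, was listed at 48, 44 and 45 and at 35, 38 and 35, with a log2 difference of -0.33 (standard error 0.11, adjusted p = 0.12 from limma). *Nalcn*, the pore subunit, was listed at 9, 7 and 4 and at 5, 6 and 4, and *Unc80* at 1, 7 and 3 and at 6, 7 and 6, with overlapping groups for both.

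**Figure D5:**
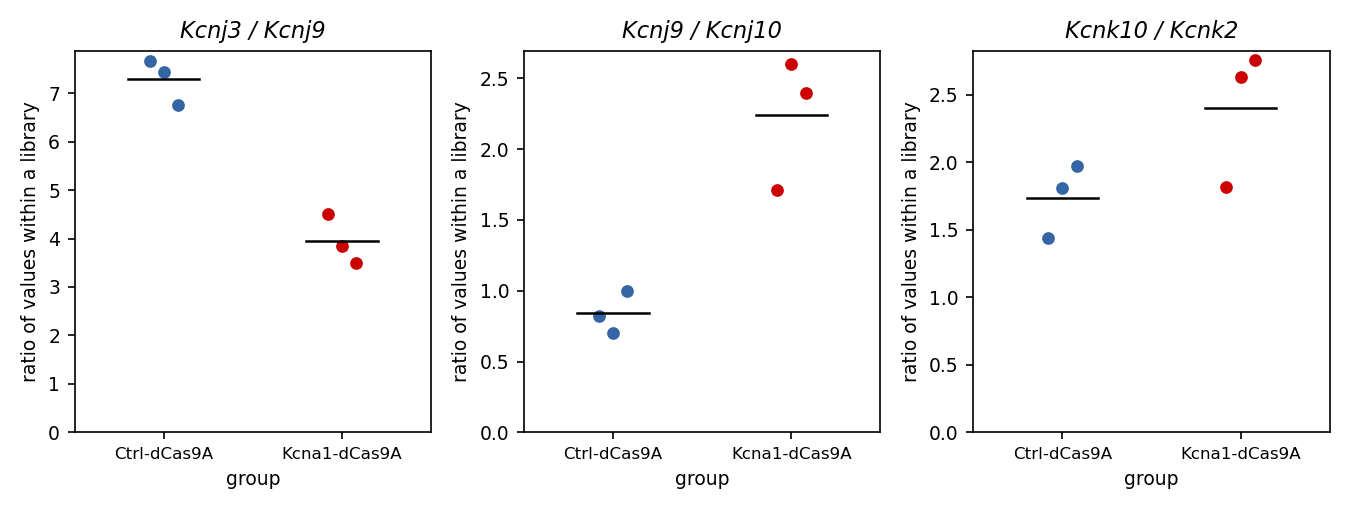
Ratios of the values of pairs of channel genes within each library (linear axes from 0), by group, with a line at the mean of 3 libraries. *Kcnj3* to *Kcnj9* is lower in all Kcna1-dCas9A libraries (3.50 to 4.50 against 6.75 to 7.67), *Kcnj9* to *Kcnj10* is higher (1.71 to 2.60 against 0.70 to 1), and *Kcnk10* to *Kcnk2* overlaps.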

How the data were processed

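Primary neurons were profiled with QuantSeq 3′ mRNA libraries, 3 for Ctrl-dCas9A and 3 for Kcna1-dCas9A, grouped by the sample titles. The submitters' processing notes name STAR 2.7, featureCounts, DESeq2 and mm10, whereas the methods of the study name Bowtie2 and NCBI37/mm9 for these libraries; the annotation and the scaling step are not given in the sources used here. Each file as deposited lists gene symbols beside whole numbers, entered here as a score because the authors state no unit. The library sums (999047 to 999717) and a replicate variance of 0.70 (Ctrl-dCas9A) and 0.50 (Kcna1-dCas9A) times the mean for genes with a mean from 4 to 8 led the values to be treated as rounded per-million values, so that tests for counts were not used and no depth or detection limit could be given.

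All 19504 genes above 0 in at least 1 library were fitted with limma 3.58.1 in R 4.3.3 (lmFit, eBayes with an intensity trend) on log2(value + 1), with 1 factor, the group, two-sided, and Benjamini-Hochberg adjustment over all genes at 0.05. Differences on this scale understate changes of low genes. Intervals are not adjusted. The fit was tested on simulated data. The 10 members, the lists of partner genes (6) and marker genes (9) and the alternatives were chosen with earlier results of these data known. Genes named were all members, *Kcna1*, in each partner list the 3 genes with the smallest p (none passed the threshold), and in each marker list the genes past the threshold and those at 0 in all libraries. *Kcnj11*, *Gnao1*, *Gabbr2*, *Snx27*, *Akap5*, *Gfap*, *Neurod6*, *Slc17a7*, *Camk2a*, *Nrgn*, *Tubb3*, *Nefl*, *Map2*, *Snap25*, *Rbfox3*, *Syt1*, *Mbp* and *Olig1* fall outside this rule and were chosen after their values were seen. Alternatives were other pseudocounts (0.1 and 4), minimum means (1 and 5), 3 rescalings, no trend, the replicate number as a block, and each library left out. Promoter sequences are RefSeq windows of GRCm38.p6, and sg19 was read from the supplementary table of the study and located in NCBIM37 by sequence.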

Additional observations from a re-analysis of the deposited data

How the results depend on the processing

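Every channel gene other than *Kcnj6* kept the sign of its log2 difference in all alternatives in which it was fitted, and 0 of the 10 passed the threshold except *Kcnk10* without Ctrl-dCas9A replicate 3. With single libraries left out, *Kcnk10* ranged from 0.20 to 0.48, *Kcnj9* from 0.49 to 0.65, *Kcnj10* from -0.82 to -0.59, *Kcnj4* from 0.23 to 0.45, *Kcnk1* from -0.34 to -0.12, *Kcnk2* from -0.27 to -0.03, *Kcnk3* from 0.09 to 0.32, *Kcnj3* from -0.33 to -0.13 and *Kcnj6* from -0.72 to 0.24, where it turned to 0.07 without Ctrl-dCas9A replicate 2 or 3 and to 0.24 without Kcna1-dCas9A replicate 3. The number of members past the threshold ranged from 0 to 1. *Kcnk9* was not fitted where the mean had to reach 1 or 5, nor without Kcna1-dCas9A replicate 2, and *Kcnj6* not where it had to reach 5.

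*Kcna1* ranged from 1.73 to 1.99 with single libraries left out, with an adjusted p over 0.05 in all but 1 of these fits. Under the replicate block *Kcna1* stayed at 1.83, its adjusted p in limma was 0.11, and the number of all genes past the threshold was 0. Same-numbered libraries deviated from their group means with correlations of 0.01 to 0.08, so that the numbers were not taken as pairs, and the replicate block changed the call of no member.

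The number of all genes past the threshold, 226, was 1543 at a minimum mean of 1, 2481 at 5, 1719 with median-of-ratios factors, 2058 with upper-quartile factors (1226 higher, 832 lower), 1768 without Gm42418, 627 with a pseudocount of 0.1 and 455 with 4, and ranged from 0 to 2711 with single libraries left out. It was 2711 without Ctrl-dCas9A replicate 3 and 0 without any other library. The number of partner genes past it, 0, was 5, 10, 4, 6 and 5 for the first 5 of these settings and 1 with a pseudocount of 4, and ranged from 0 to 13 with single libraries left out (13 without Ctrl-dCas9A replicate 3). The causes were not tested. Rounding and the unknown depth limit *Kcnk3*, *Kcnk9*, *Kcnj6*, *Kcnj9* and *Kcnj10* most.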
